A study of Homo sapiens with 6 samples.

Results

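The contact between chromosomes 1 and 18 in HCC1954 was described from in situ Hi-C, an assay in which DNA ends that lie close together in the nucleus are joined and counted as read pairs. The chromosome pair was selected on its high contact frequency in HCC1954, and then all pairs of 40-kb bins with 1 bin on each of the 2 chromosomes were taken. This gave 12164864 bin pairs of the 2733951927 pairs of different chromosomes on the hg19 genome. In 9412780 of them each of the 2 bins had enough read pairs of its own in every line to be used. HCC1954 is a breast cancer cell line, SNU-C1 and SW480 are colon cancer lines and OE33 is an oesophageal adenocarcinoma line. No line carried a treatment. A single map was at hand for HCC1954, for SNU-C1 and for OE33. The 2 replicate maps of SW480 hold next to no contacts between chromosomes, so SW480 entered only measurements made within chromosomes. With 1 map per line a difference between lines has no replicate check and no test, and intervals given here are exact 95% Poisson intervals that cover counting error only. The HCC1954 map held 116359220 read pairs, of which 19.6% joined different chromosomes, against 14.8% of 135017346 in SNU-C1 and 36.6% of 141120752 in OE33.

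Chromosomes occupy separate territories, so loci on different chromosomes normally meet rarely. When a break joins 2 chromosomes, the sequences flanking the junction become neighbours on 1 molecule, and their contacts rise to a level that falls with distance along the new molecule. On a contact map such a junction is seen as a corner, a bright quadrant whose tip marks the pair of break positions and whose direction shows which side of each chromosome was kept. A junction of this kind can be carried by some copies of a chromosome while other copies are intact.

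Genes at the 2 sharpest corners give the places their names. The 250 reference bases that precede the annotated start of each gene are given here, 5′ to 3′ on the gene's own strand from GRCh37, because 3 of the 4 starts lay on the sides of chromosomes 1 and 18 that had come together. Capitals mark GATC, the site cut by MboI, the enzyme from whose cut ends Hi-C read pairs are made. PTGER3, a receptor for prostaglandin E2, starts on the minus strand and its window is chr1:71513500-71513749. ZNF521, a zinc finger transcriptional regulator, also starts on the minus strand, with its window at chr18:22932155-22932404. SLC44A3, a member of the choline transporter-like family, starts on the plus strand at chr1:95285648-95285897. GALNT1, an enzyme that begins mucin-type O-glycosylation, starts on the plus strand at chr18:33160831-33161080.
PTGER3: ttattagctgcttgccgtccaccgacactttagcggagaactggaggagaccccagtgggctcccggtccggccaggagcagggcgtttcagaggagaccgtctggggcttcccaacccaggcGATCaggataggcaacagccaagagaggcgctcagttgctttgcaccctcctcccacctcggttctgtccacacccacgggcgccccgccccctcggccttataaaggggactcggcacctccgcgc
ZNF521: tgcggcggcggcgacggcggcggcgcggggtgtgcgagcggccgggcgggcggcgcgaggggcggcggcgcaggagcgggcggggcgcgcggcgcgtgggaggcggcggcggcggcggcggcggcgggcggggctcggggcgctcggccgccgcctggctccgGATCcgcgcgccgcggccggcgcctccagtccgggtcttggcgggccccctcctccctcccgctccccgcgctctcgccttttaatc
SLC44A3: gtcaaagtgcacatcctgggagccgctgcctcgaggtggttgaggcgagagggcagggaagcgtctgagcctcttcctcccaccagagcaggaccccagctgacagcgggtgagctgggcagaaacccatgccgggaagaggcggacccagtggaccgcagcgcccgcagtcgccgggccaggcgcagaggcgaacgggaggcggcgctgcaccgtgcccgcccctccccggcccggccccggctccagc
GALNT1: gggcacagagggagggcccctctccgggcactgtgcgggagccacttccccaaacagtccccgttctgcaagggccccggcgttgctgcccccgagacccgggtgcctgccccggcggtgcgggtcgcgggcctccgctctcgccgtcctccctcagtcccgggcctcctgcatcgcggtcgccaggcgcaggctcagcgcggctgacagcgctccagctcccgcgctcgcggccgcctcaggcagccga
The PTGER3 and ZNF521 windows held 1 GATC each and the other two held none, and 36.9% of 2355 protein-coding genes of chromosomes 1 and 18 have GATC in the same window, which reads the same on both strands. Their GC content was 64.4% for PTGER3, 86.0% for ZNF521, 72.4% for SLC44A3 and 76.0% for GALNT1. The median number of MboI sites per usable 40-kb bin was 101 on chromosome 1 (5th percentile 77) and 95 on chromosome 18 (5th percentile 75). The bins at corner 1 held between 97 and 117. Those at corner 3 held 81 to 98 on chromosome 1 and 81 to 88 on chromosome 18, all under the medians. No bin at either corner was below the 5th percentile.

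Contacts between chromosomes 1 and 18 were high in HCC1954 over a stretch of the chromosome 1 short arm and of the chromosome 18 long arm, and in neither of the other lines. O/E is the mean corrected contact frequency of a block divided by the mean over all usable pairs of different chromosomes in the same map, so 1 is the average level. A 1-Mb block pair was called line-specific when its O/E reached 4 and, with 0.5 added on each side, was also 4 times that of either remaining line or more. Of 15478 block pairs of chromosomes 1 and 18, 767 (4.96%) were called in HCC1954, where 0.397% of all 3342397 block pairs of different chromosomes were called. With thresholds of 6 the count was 443 (2.86%), and with an expected value from chromosomes 1 and 18 alone 387 (2.5%). None was called in SNU-C1 or in OE33, where the shares over all block pairs were 0.169% and 0.0702%. These contacts chose the chromosome pair, so the counts are a description. Chromosomes 1 and 18 ranked 4 among the chromosome pairs of HCC1954 by the number of calls, 8 by the percent called and 45 by the mean O/E over the whole pair, which was 1.41.

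The 767 block pairs lay between 71 and 121 Mb of chromosome 1 and between 21 and 49 Mb of chromosome 18. No block pair of the chromosome 1 long arm or of the chromosome 18 short arm was called. Their median O/E was 8.97, with a median of 46 read pairs each, and the highest O/E at any of them in the other 2 lines was 2.27. They held 45640 of the 119818 read pairs between the chromosomes in HCC1954 (38.1%). The weakest called block pair had an O/E of 4.02 and the strongest below the limit 3.99, and 171 block pairs with an O/E of 4 or more were not called, the highest at 10.3.

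Within this area the contact peaked at 2 places. The highest block pair joined chromosome 1 at 71 to 72 Mb and chromosome 18 at 23 to 24 Mb, with an O/E of 106 and 393 read pairs (355 to 434) in HCC1954, where SNU-C1 had 1.41 and OE33 0.799. The next was 95 to 96 Mb with 32 to 33 Mb, with an O/E of 97.6 and 848 read pairs (792 to 907) in HCC1954, where SNU-C1 had 0.142 and OE33 0.656. O/E fell away from each peak. Along chromosome 1 from 71 Mb it went from 106 to 69.2, 35.9 and 34.4 in successive blocks with 23 to 24 Mb of chromosome 18. Along chromosome 1 from 95 Mb it went from 97.6 to 54.0, 39.5 and 34.6 with 32 to 33 Mb.

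**Figure D1:**
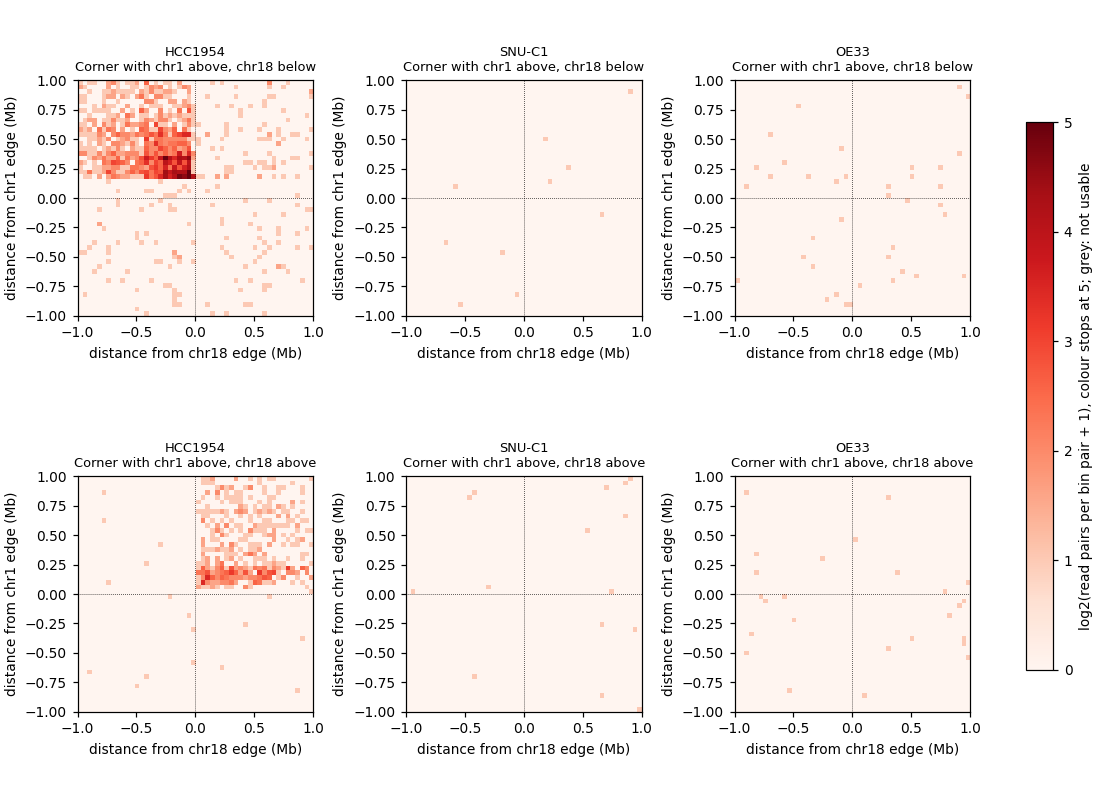
Read pairs per pair of 40-kb bins within 1 Mb of the 2 sharp corners, as log2(read pairs + 1), with distance from the chromosome 18 edge across and distance from the chromosome 1 edge upwards; the upper panels are corner 1, the lower panels corner 3, and the columns are HCC1954, SNU-C1 and OE33. Only HCC1954 shows a filled quadrant, and in the upper panel its lower border lies 0.16 Mb above the rule's edge.

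Corners were placed on blocks of 200 kb. The same rule, with a minimum of 10 read pairs per block pair, called 389 of 381990 block pairs (0.102%) for HCC1954. The other lines, SNU-C1 and OE33, had 0 each. Without that minimum HCC1954 had 36548 calls (9.57%), against 28296 (7.41%) for SNU-C1 and 11631 (3.04%) for OE33. The 0 of the other lines therefore rests on the minimum of read pairs. No 200-kb share of other chromosome pairs is given beside these counts. The 389 block pairs formed 10 clusters of at least 5 block pairs, ranked by read pairs. For each bin edge pair, 1 quadrant of 10 by 10 bins was set against the mean of the other 3. The corner of each cluster was the pair with the largest log2 difference. Of the 10 corners, 2 were sharp, with log2 differences of 6.01 (corner 1) and 6.95 (corner 3). The other 8 had differences from 0.85 to 3.39 and lay inside the joined area or at its borders.

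Corner 1 joined chromosome 1 above 95.16 Mb to chromosome 18 below 33.24 Mb. Its strongest quadrant, 400 kb on each side, had an O/E of 400 with 707 read pairs (656 to 761) in HCC1954, while the other 3 quadrants had 4.84, 3.76 and 8.53 with 8, 4 and 13 read pairs. The same quadrant held 0 read pairs in SNU-C1, which allows up to 3.69, and 3 in OE33 (0.619 to 8.77). The most frequent bin pair between the chromosomes was chr1:95320001-95360000 with chr18:33160001-33200000, with 73 read pairs (57.2 to 91.8) in HCC1954, while SNU-C1 held 0 and OE33 held 1. In all, 98.8% of the usable bin pairs of chromosomes 1 and 18 held no read pair in HCC1954, and the highest bin pair held 3 in SNU-C1 and 8 in OE33.

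Read pairs counted bin by bin placed the chromosome 1 edge of corner 1 higher than the rule did. With the 10 bins of chromosome 18 below 33.24 Mb, the 4 chromosome 1 bins starting at 95.16, 95.20, 95.24 and 95.28 Mb held 3, 3, 1 and 1 read pairs in HCC1954, and the bins starting at 95.32 and 95.36 Mb held 205 and 136. Quadrants of 5 by 5 or 15 by 15 bins also put the edge at 95.32 Mb. On chromosome 18, the bins starting at 33.16, 33.20 and 33.24 Mb held 171, 24 and 1 read pairs, so that side was steep at the rule's own edge. SLC44A3 (chr1:95285898-95360802) spans the position at 95.32 Mb, and its start lay 34.1 kb below it, on the side that was not joined. GALNT1 (chr18:33161081-33291798) spans the chromosome 18 edge, with its start 78.9 kb away on the joined side.

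Corner 3 joined chromosome 1 above 71.32 Mb to chromosome 18 above 22.84 Mb, so the sides kept on chromosome 18 faced each other between the 2 corners. Its strongest quadrant had an O/E of 319 with 187 read pairs (161 to 216) in HCC1954, against 6.25, 0 and 0 in the other 3 quadrants, which held 3, 0 and 0 read pairs. SNU-C1 held 0 read pairs in that quadrant and OE33 held 1. With the 10 bins of chromosome 18 above the edge, chromosome 1 bins from 71.08 to 71.32 Mb held 0 read pairs each, those starting at 71.36, 71.40, 71.44, 71.48 and 71.52 Mb held 9, 30, 40, 43 and 29, and the next, at 71.56, 71.60 and 71.64 Mb, held 12, 9 and 5. The contact was therefore densest in the 4 bins from 71.40 Mb upwards, past 2 bins above the rule's edge that held 0 and 9. PTGER3 (chr1:71318036-71513499) and ZNF521 (chr18:22641888-22932154) span the 2 edges, and both start on the joined side, 193.5 and 92.2 kb from the edges.

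The other corners among the 6 leading ones were far weaker, with O/E from 27.2 to 37.8 and 16 to 54 read pairs in their strongest quadrants. Corner 2 (95.08 and 30.08 Mb), with an O/E of 29.9, lay between F3, the gene of tissue factor, and SLC44A3 on chromosome 1, and between the adaptor gene GAREM1 and KLHL14 on chromosome 18. Corner 4 (95.48 and 22.64 Mb), at 37.8, fell in ALG14, a subunit of an enzyme of N-glycosylation, and between HRH4, a histamine receptor gene, and ZNF521. Corner 5 (107.92 and 30.28 Mb), at 29.1, fell in NTNG1, a netrin gene, and in KLHL14. Corner 6 (106.88 and 31.36 Mb), at 27.2, lay between AMY1C and PRMT6 and between ASXL3 and NOL4. These gene placements hold for the rule's edges only. With 5 by 5 bins the chromosome 1 edge of corner 2 moved to 95.32 Mb, inside SLC44A3. That of corner 4 moved to 95.8 Mb, past ALG14, and that of corner 5 to 108.28 Mb, past NTNG1. Without iterative correction corner 4 lay at 95.68 and 22.12 Mb, and corner 6 at 107.04 and 31.56 Mb, inside NOL4. Corner 7 (75.08 and 22.68 Mb), outside the leading 6 because these were ranked by the read pairs of their clusters, was the sharpest after corners 1 and 3, with a log2 difference of 3.39. Its strongest quadrant had an O/E of 52.1, from 25 read pairs (16.2 to 36.9) in HCC1954, and SNU-C1 and OE33 held 0 there. In the 1 Mb kept by orientation, chromosome 1 held 6 protein-coding genes at corner 1 (ALG14, CNN3, RWDD3, SLC44A3, TLCD4 and TLCD4-RWDD3) and 3 at corner 3 (NEGR1, PTGER3 and ZRANB2), and chromosome 18 held 9 at corner 1, among them GALNT1, INO80C, MAPRE2 and DTNA, and 4 at corner 3 (PSMA8, SS18, TAF4B and ZNF521). NEGR1 codes for a neuronal adhesion protein, SS18 for a subunit of a chromatin remodelling complex and TAF4B for a subunit of the general transcription factor TFIID.

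The joined area had straight borders that extended well beyond the corners. Averaged over chromosome 1 from 71.32 to 95.16 Mb, the O/E of HCC1954 with chromosome 18 rose at 22.84 Mb, from 0.592 in the Mb below to 20.7 in the Mb above, and fell at 35.24 Mb from 5.47 to 0.473. Averaged over chromosome 1 from 95.16 Mb to the last usable bin before the centromere, it rose at 21.64 Mb from 3.27 to 15.3 and fell at 48.56 Mb from 5.18 to 0.561. These 3 further edges are called the inner upper edge (35.24 Mb), the outer lower edge (21.64 Mb) and the outer upper edge (48.56 Mb). Chromosome 1 below 71.32 Mb and the chromosome 1 long arm gave no edge, and SNU-C1 and OE33 gave none with any stretch, counting steps of at least 1.5 on the log2 scale between the Mb on either side. Along chromosome 1, contact with chromosome 18 between the corners rose at 71.36 Mb from 1.72 to 35.8 and again at 95.32 Mb from 4.94 to 30.8, and contact with chromosome 18 from 35.24 to 48.56 Mb rose at 95.32 Mb alone, from 0.854 to 7.36.

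**Figure D2:**
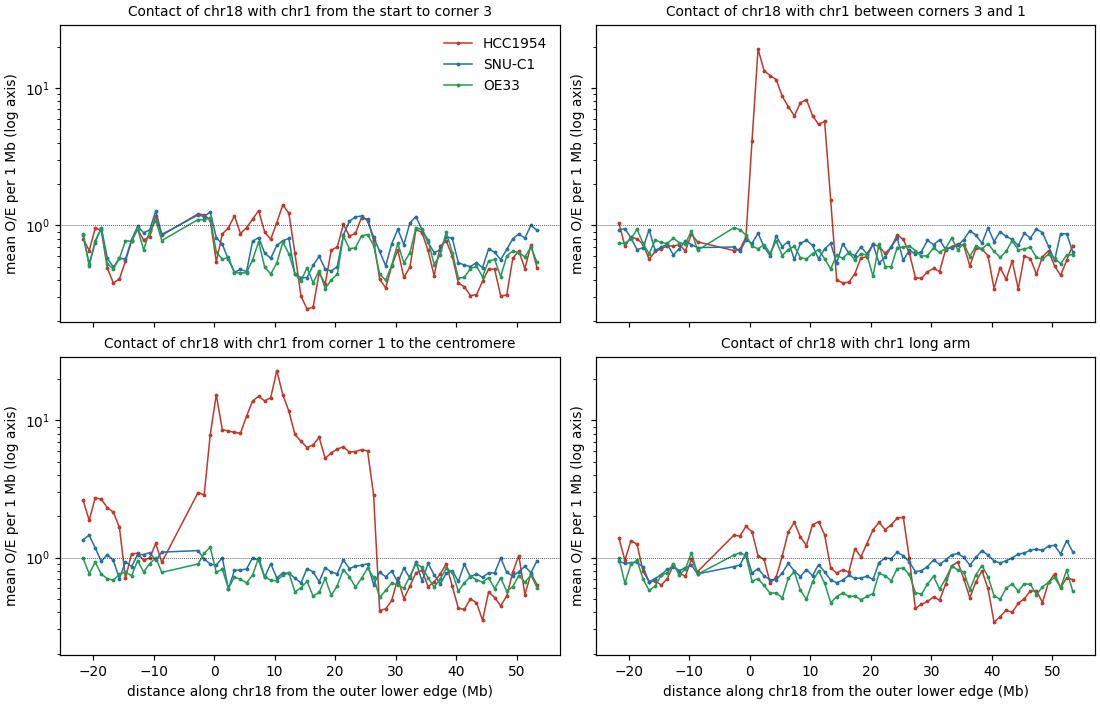
Mean O/E per 1 Mb of chromosome 18 (log axis) with 4 stretches of chromosome 1, against distance from the outer lower edge on chromosome 18, for HCC1954, SNU-C1 and OE33; corners 3 and 1 divide the short arm of chromosome 1 at 71.32 and 95.16 Mb. In HCC1954 the stretch between the corners reaches up to the inner upper edge and the stretch from corner 1 to the centromere up to the outer upper edge, while SNU-C1 and OE33 show no such rise.

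The 2 stretches of chromosome 1 therefore met different lengths of chromosome 18. Chromosome 18 from 22.84 to 33.24 Mb met both, with a mean O/E of 10.2 (11836 read pairs) for chromosome 1 between the corners and of 12.9 (21535 read pairs) for chromosome 1 from corner 1 to the centromere. Chromosome 18 from 35.24 to 48.56 Mb met only the second, with 0.601 (950 read pairs) and 6.28 (10547 read pairs). Chromosome 18 from 21.64 to 22.84 Mb did likewise, with 0.606 (99 read pairs) and 15.2 (2809 read pairs). Chromosome 18 from 33.24 to 35.24 Mb, past corner 1, still had 5.47 (1423 read pairs) and 11.01 (3388 read pairs). Over the same stretches O/E lay between 0.642 and 0.924 in SNU-C1 and between 0.580 and 0.903 in OE33. Beyond the upper border HCC1954 was below both lines. Chromosome 18 beyond 48.56 Mb had 0.553 and 0.620 with the 2 stretches, against 0.786 and 0.791 in SNU-C1 and 0.650 and 0.680 in OE33. The chromosome 18 short arm was above the other lines with the second stretch, at 1.64 against 1.04 and 0.818. The long arm of chromosome 1, which held no call, had 1.24 to 1.69 with the stretches of chromosome 18 from 18.52 to 48.56 Mb, against 0.621 to 1.06 in the other lines, and 0.585 beyond, against 1.04 in SNU-C1 and 0.663 in OE33. Chromosome 1 below 71.32 Mb had 1.004 with chromosome 18 from 22.84 to 33.24 Mb, against 0.625 in SNU-C1 and 0.537 in OE33, and 1.24 with 33.24 to 35.24 Mb, against 0.739 and 0.661. Values above the other lines were therefore also found with chromosome 1 outside the joined stretches.

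Contacts were followed over the distance summed along both chromosomes from the corner, and the slope depended on where the edge was placed and on the distances used. Contact frequency here is the corrected value per bin pair. Distances were cut into log-spaced ranges, and the last one ended below the stated limit, at 1791 kb for 2 Mb. Measured from the edges found with 5 by 5 bins (95.32 and 33.24 Mb), corner 1 went from 16.96 per bin pair at 80 kb (74 read pairs) to 4.76 at 383 kb and 0.552 at 1527 kb, with a slope of -1.10 ± 0.09 (SE of the fit over 9 distance ranges, not over replicates) on log10 scales. Pairs within chromosomes 1 and 18 of the same map had a slope of -1.03 at the same distances. The joined contacts were 0.0984 to 0.153 of the contacts within those chromosomes at each distance. From the rule's edges, 160 kb into sequence that was hardly joined, the first range held no read pair and the second held 1. The fits left out the empty range and gave the others equal weight. The slope was 0.20 ± 0.51 over 80 kb to 2 Mb (8 ranges) and 1.18 ± 0.67 over 80 kb to 1 Mb (6 ranges). From 200 kb to 5 Mb, where the placement of the edge weighs less, the rule's edges gave -1.16 ± 0.10 beside -1.26 within the chromosomes.

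Corner 3 had few read pairs at short distances. From its 5 by 5 edges (71.36 and 22.84 Mb) the frequency was 2.34 per bin pair at 80 kb, from 2 read pairs (0.242 to 7.22), then 8.08 at 120 kb, 3.70 at 383 kb and 0.740 at 1526 kb. The slope was -0.58 ± 0.19 over 80 kb to 2 Mb, or -0.37 ± 0.20 from the rule's edges. Those edges gave -0.01 ± 0.25 over 80 kb to 1 Mb and -1.03 ± 0.07 over 200 kb to 5 Mb. Within the chromosomes the slope was -1.03 over 80 kb to 2 Mb and -1.26 over 200 kb to 5 Mb, steeper than at corner 3. From 120 kb outwards its contacts were 0.0901 to 0.144 of those within the chromosomes, a range that overlaps that of corner 1. In HCC1954 the strongest quadrants held 1762 read pairs at corner 1 and 691 at corner 3 over 80 to 1791 kb from the rule's edges. The same quadrants held 2 and 5 in SNU-C1 and 11 and 5 in OE33.

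**Figure D3:**
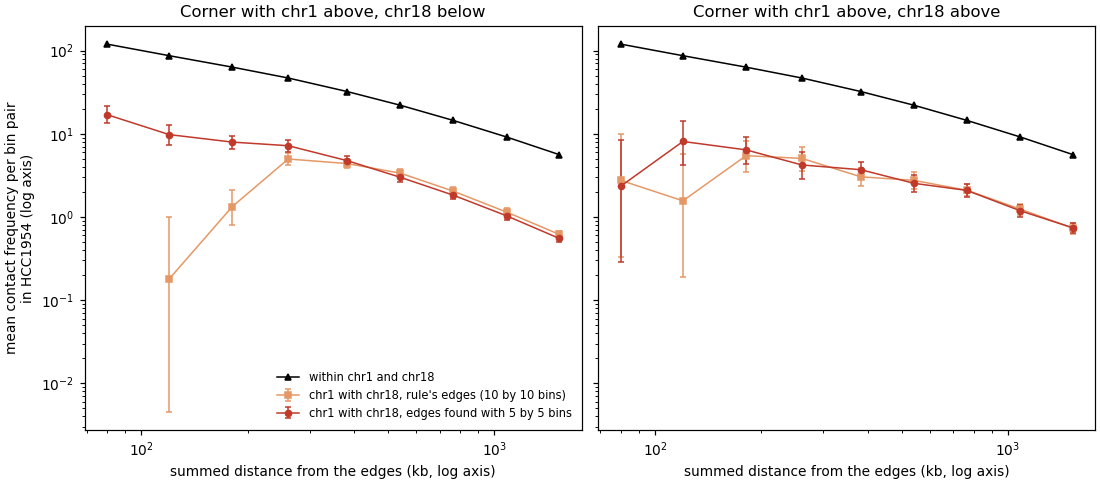
Mean contact frequency per bin pair in HCC1954 against the distance summed along both chromosomes from the corner (both axes log), for chromosome 1 with chromosome 18 from the rule's edges (squares) and from the edges found with 5 by 5 bins (circles), with 95% Poisson intervals, and for pairs within chromosomes 1 and 18 (triangles). From the 5 by 5 edges both corners lie below the contacts within chromosomes, at 0.0984 to 0.153 of them at corner 1 and, from 120 kb outwards, at 0.0901 to 0.144 at corner 3, whose slope of -0.58 is shallower than the -1.03 within chromosomes.

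Over 1 and 2 Mb, coverage within chromosomes stepped at the upper edges on chromosome 18 more than at the corners. Coverage is the number of read pairs that a bin made within its own chromosome, which grows with the number of copies but also with mappability and MboI sites, so each step was set beside the same step in the 4 other maps. At the outer upper edge, in the 2 Mb on each side, the kept side was above the other by 1.24 on the log2 scale in HCC1954, against 0.10 in SNU-C1, 0.24 in OE33 and 0.25 and 0.23 in the SW480 replicates. At the inner upper edge the same step was 1.03 in HCC1954, 0.03 in SNU-C1, 0.28 in OE33 and -0.26 and -0.23 in SW480. Over 1 Mb the steps of HCC1954 were 0.69 and 0.72, again above every other map. Over 480 kb the steps were 0.19 at the outer upper edge, against 0.02 to 0.09 in the other maps, and 0.60 at the inner upper edge, against -0.42 to 0.31. At this window the outer upper step was below the 0.27 of HCC1954 at corner 1 on chromosome 18, where the other maps had 0.06 to 0.23. The SW480 replicates differed from each other by 0.03 and 0.04 at these edges over 2 Mb, far less than HCC1954 differed from the others.

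At the corners the steps over 1 Mb were smaller or ran the other way. Over 1 Mb at corner 1, the kept side of chromosome 1 was above the other by 0.06 in HCC1954, where the steps of the other maps were -0.17 to -0.06. Over 480 kb it was 0.04, inside the 0.01 to 0.10 of the others, and over 2 Mb 0.02 against -0.29 to -0.24. From the 5 by 5 edge at 95.32 Mb it was -0.06 over 1 Mb, against -0.30 to -0.16. On chromosome 18 the step was 0.22, beside 0.21 in SNU-C1 and -0.07 to 0.03 in the others. At corner 3 the kept side of chromosome 1 was the lower one, with a step of -0.55 in HCC1954 that was larger than the -0.27 to -0.04 of the others. Over 480 kb that step was -0.11, inside the range of the others, -0.12 to -0.02. On chromosome 18 it was -0.20 in HCC1954, inside the range of -0.71 to -0.17.

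Over whole stretches, coverage in HCC1954 rose toward the centromere of chromosome 1 and was lowest on chromosome 18 past the joined area. On chromosome 1 the median coverage, relative to the autosomal median, was 0.876 below corner 3, 1.24 between the corners and 1.34 from corner 1 to the centromere. The same 3 values were 0.890, 1.04 and 0.976 in SNU-C1, 0.768, 0.963 and 0.993 in OE33, and 0.948, 0.934 and 0.921 in SW480 replicate 1. The long arm of chromosome 1, which was not joined, had 1.46 in HCC1954, 1.33 in SNU-C1, 1.09 in OE33 and 0.999 in SW480 replicate 1. On chromosome 18 HCC1954 had 0.882 from 22.84 to 33.24 Mb, 0.767 from 35.24 to 48.56 Mb and 0.459 beyond, where SNU-C1 had 0.723, 0.672 and 0.658, OE33 had 0.498, 0.510 and 0.519 and SW480 replicate 1 had 0.616, 0.717 and 0.691. Below the joined area, from 18.52 to 21.64 Mb, HCC1954 had 0.999, SNU-C1 0.782, OE33 0.914 and the SW480 replicates 1.21 and 1.24. At the outer lower edge the step changed sign with the window, from 0.28 over 480 kb (-0.09 to 0.01 in the other maps) to -0.04 over 1 Mb (-0.21 to 0.12) and -0.55 over 2 Mb (-0.92 to -0.09).

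**Figure D4:**
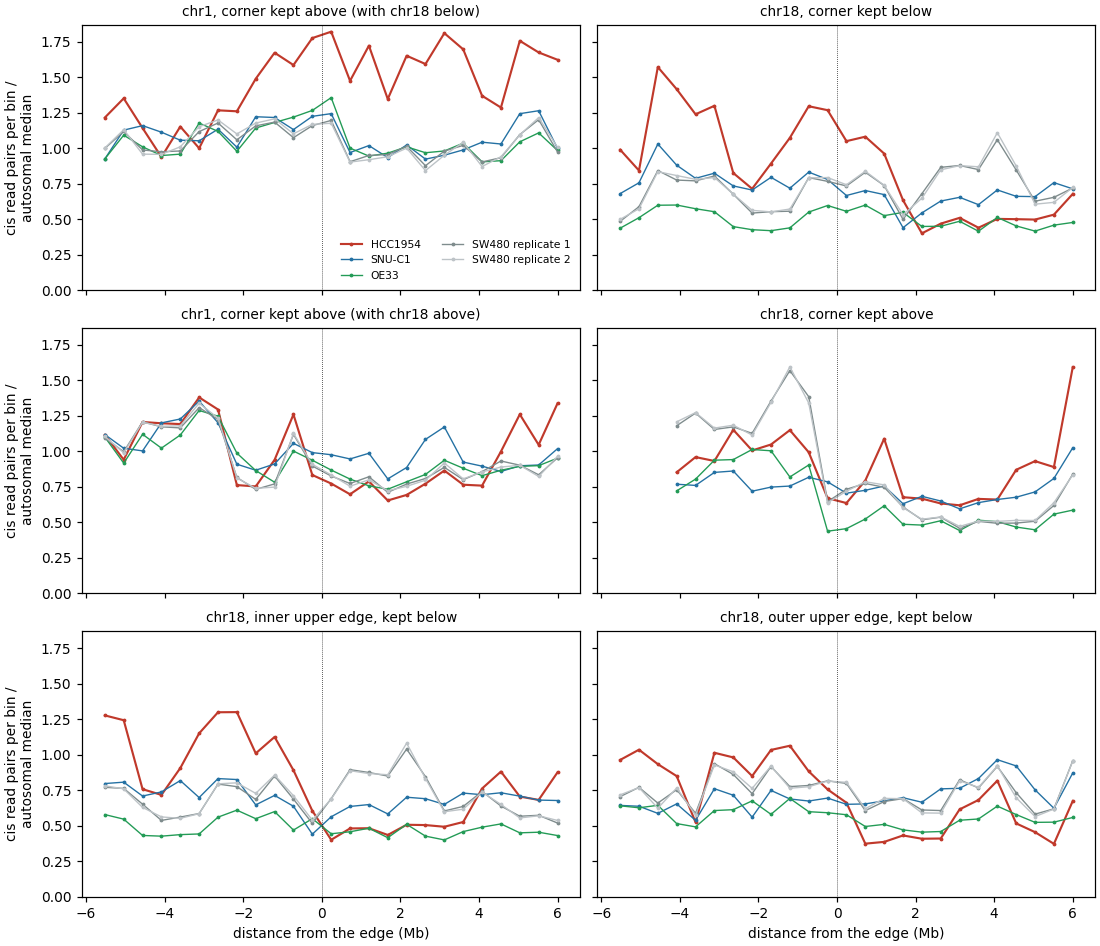
Read pairs within the chromosome per bin, divided by the autosomal median, in steps of 0.48 Mb against distance from 6 edges, for HCC1954, SNU-C1, OE33 and the 2 SW480 replicates. HCC1954 drops across the inner and outer upper edges of chromosome 18, with steps of 0.72 and 0.69 over 1 Mb, and its steps at the 4 corner edges run from -0.55 to 0.22.

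Contacts within each chromosome still crossed the corners in HCC1954. The O/E of pairs with 1 bin on each side of the edge, up to 1 Mb away, was 0.909 on chromosome 1 at corner 1 (13032 read pairs), and 0.874 to 0.943 in the other 4 maps. On chromosome 18 at corner 1 it was 0.905 (8699 read pairs) and 0.834 to 1.24. At corner 3 it was 1.02 on chromosome 1 (5337 read pairs) and 0.934 to 1.10, and 1.23 on chromosome 18 (5747 read pairs) and 1.22 to 1.60. At these 4 edges, over 1 Mb and with the corrected values, HCC1954 lay inside the range of the other maps. Placement and correction changed this. From the 5 by 5 edge of corner 1 on chromosome 1 it was 0.679, just above the 0.571 to 0.672 of the others. Without iterative correction, corner 1 had 1.67 on chromosome 1, above 1.01 to 1.24, and 1.12 on chromosome 18, above 0.654 to 0.782. Corner 3 then had 0.686 on chromosome 1, below 0.751 to 0.916, and 0.738 on chromosome 18, inside 0.664 to 1.12. The uncorrected values also carry the coverage of the bins. With the corrected values over 1 Mb, the inner and outer upper edges had 0.783 and 0.755, inside the ranges of 0.635 to 1.06 and 0.664 to 0.899. Without correction the inner upper edge had 0.299, below the 0.364 to 0.481 of the others, and the outer upper edge 0.494, inside 0.485 to 0.638. The outer lower edge had 0.670 (0.654 to 0.687) corrected over 1 Mb, under the 0.689 to 0.883 of the others but with an interval that overlaps that of OE33 (0.671 to 0.707). It lay inside the other maps' range over 480 kb (0.877 against 0.835 to 1.09), over 2 Mb (0.557 against 0.547 to 0.801) and uncorrected (0.814 against 0.628 to 1.39). On chromosome 1 at corner 3, within 480 kb, the corrected value was 1.22, above the 0.975 to 1.13 of the others.

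Next to corner 1 the kept megabases lay mostly in the active compartment, and next to corner 3 in the inactive one. The genome divides into an active A and an inactive B compartment, here read from the first eigenvector of the contact correlations in 200-kb blocks of each arm, in units of its SD, with positive values for A. At corner 1 the 1 Mb kept had a mean above 0 on both chromosomes in HCC1954, at 0.75 on chromosome 1 and 0.83 on chromosome 18. On chromosome 1 that mean fell along its 5 blocks, at 1.37, 1.12, 1.09, 0.40 and -0.22 from 95 Mb upwards, and the first of them lies mostly below the edge. In the 5 whole blocks above the 5 by 5 edge, chr1:95400001-96400000, it was 0.21. At corner 3 the 1 Mb kept was in B on both chromosomes, at -1.65 and -0.64. In the same 1 Mb on chromosome 1 all other maps were in B too, at -1.64 to -1.52, and in that on chromosome 18 OE33 was at -0.79, SNU-C1 at -0.02 and the SW480 replicates at 0.50 and 0.54. Farther in, 0.5 to 3 Mb from the edges, medians in HCC1954 were below 0 on every kept side, at -0.20 on chromosome 1 and -0.86 on chromosome 18 at corner 1, and at -1.67 and -0.78 at corner 3. There the medians of the other maps on chromosome 18 at corner 3 were below 0 as well, at -0.83 to -0.54.

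On chromosome 1 above corner 1 the eigenvector of HCC1954 was above that of every other map. The 1 Mb kept was at 0.75 in HCC1954, and at -0.59 in SNU-C1, -0.35 in OE33 and -0.32 and -0.26 in the SW480 replicates, which differed from each other by far less than from HCC1954. In the 5 whole blocks above 95.32 Mb the 0.21 of HCC1954 stood against -1.29 to -1.12. Farther from the edge, 0.5 to 3 Mb into the kept side, a stretch set after the profile was seen, in the 13 blocks of chr1:95600001-98200000, the eigenvector ran from -0.47 to 0.40 with a median of -0.20 in HCC1954, and its median was -1.52 in SNU-C1, -1.32 in OE33, and -1.52 and -1.49 in SW480. HCC1954 was the highest of the 5 maps in 13 of those 13 blocks, beside 37.2% of the 1070 blocks of chromosome 1. As the stretch was set with the profile in view, this count is a description only. The shift began below the edge, since the 1 Mb on the other side was at 1.29 in HCC1954 and at 0.49 to 0.92 in the other maps. Over the same distance HCC1954 was highest in 3 of 13 blocks on chromosome 18 at corner 1, 0 of 13 on chromosome 1 at corner 3 and 1 of 12 on chromosome 18 at corner 3, beside 25.5% of the 357 blocks of chromosome 18. HCC1954 had means above the other maps close to the edge on chromosome 18 at corner 1, though not in every block. Its mean over the 1 Mb kept was 0.834 against 0.506 to 0.827, with SNU-C1 just below, and over the 5 whole blocks of chr18:32200001-33200000 it was 0.70 against 0.14 to 0.52. In the 3 blocks of chr18:32400001-33000000 HCC1954 was at 0.65, 0.29 and 0.79, below the 0.85, 0.57 and 0.87 of SNU-C1. The mean over the 1 Mb kept also takes in chr18:33200001-33400000, mostly past the edge, with 1.11 in HCC1954 and 0.54 in SNU-C1. The 3 blocks of chr18:31800001-32400000 are those counted above as highest in HCC1954. They were at -0.61, -0.20 and 0.44 in HCC1954 and at -1.31 to -0.75 in the others. Coverage around SLC44A3, in the same place, was 1.77 in HCC1954 and 1.15 to 1.27 in the other maps, and its part in the eigenvector was not tested. Blocks in A in HCC1954 and in B in all other maps were not limited to this place. They were 9 of 116 blocks of chromosome 1 between the corners, 8 of 124 from corner 1 to the centromere, 18 of 498 on the long arm and 6 of 330 below corner 3, with 1, 1, 18 and 11 blocks the other way round. On chromosome 18 they were 7 of 132 between the outer edges and 1 of 138 beyond, with 1 and 6 the other way round. Over whole arms, the eigenvector of HCC1954 correlated with that of the other maps at r = 0.80 to 0.89 over 1070 blocks of chromosome 1 and 0.79 to 0.90 over 357 blocks of chromosome 18, while the SW480 replicates correlated at 0.995 and 0.994; the blocks share a genome and base composition.

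**Figure D5:**
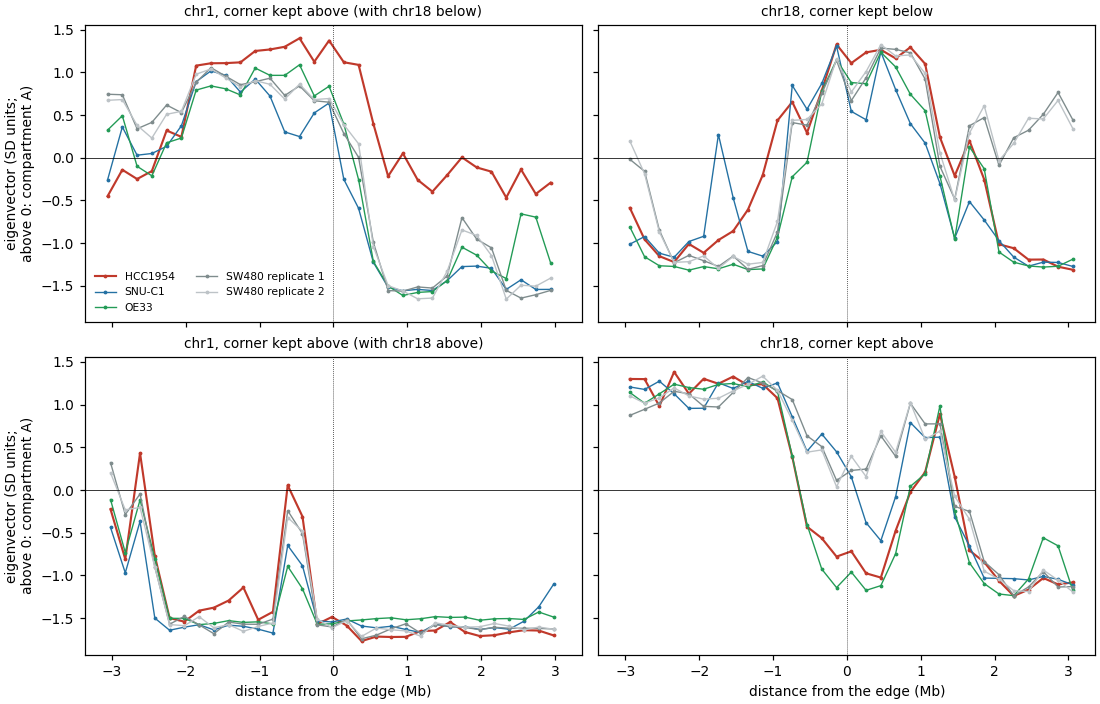
Eigenvector of 200-kb blocks (SD units, above 0 in compartment A) against distance from the 4 corner edges, for HCC1954, SNU-C1, OE33 and the 2 SW480 replicates. Above corner 1 on chromosome 1 (upper left) HCC1954 stays near 0 where the other 4 maps fall to between -1.65 and -0.66, and above corner 3 on chromosome 1 (lower left, the kept side) all maps lie together.

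Compartments also ordered the ordinary contacts of the 2 chromosomes. Over 20 Mb from every corner, pairs of A blocks had a mean O/E of 1.30 in HCC1954, mixed pairs 0.661 and pairs of B blocks 0.805. SNU-C1 had 1.12, 0.620 and 1.03, and OE33 had 0.935, 0.588 and 0.620, so mixed pairs were lowest in each line. In the joined stretches of HCC1954 the same classes had 8.25, 5.45 and 9.31, and mixed pairs were again the lowest, while SNU-C1 had 1.02, 0.613 and 0.817 and OE33 0.956, 0.614 and 0.652 there.

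Most edges on chromosome 18 had a further partner on another chromosome. In HCC1954 the 1 Mb kept above corner 3 on chromosome 18 had its highest 1-Mb contact with chromosome 22 at 27 to 28 Mb, with an O/E of 152 and 938 read pairs (879 to 1000), ahead of chromosome 1 at 71 to 72 Mb with 129 and 459 read pairs. The 1 Mb below the inner upper edge met chromosome 6 at 46 to 47 Mb with an O/E of 182 and 1084 read pairs (1020 to 1150), and chromosome 1 with 15.8 and 92 read pairs. The 1 Mb above the outer lower edge met chromosome 21 at 17 to 18 Mb with 41.7 and 263 read pairs. Its contact with chromosome 1 was close behind, at 30.5 and 212 read pairs. The 1 Mb below the outer upper edge met chromosome 11 at 102 to 103 Mb with 11.9 and 148 read pairs. There chromosome 1 had 8.79 and 56 read pairs. At corner 1 chromosomes 1 and 18 were each other's leading partners by far. The kept 1 Mb of chromosome 1 had 109 with chromosome 18 and next 3.28 with chromosome 6, and the kept 1 Mb of chromosome 18 had 151 with chromosome 1 and next 19.5 with chromosome 6. The same windows were not free of partners elsewhere. In OE33 the window above corner 3 met chromosome 7 at 118 to 119 Mb with 20.3 on the chromosome 1 side, and chromosome 4 at 179 to 180 Mb with 26.6 on the chromosome 18 side, and in SNU-C1 no window passed 4.70.

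Cancer genes of the 2 chromosomes were read from a list of 30, of which 5 lay inside the joined area. All 280 protein-coding genes of its chromosome 1 part and all 93 of its chromosome 18 part reached a 1-Mb O/E of 4 in HCC1954. The area was drawn from the same O/E values, and genes of 1 block share a value. Those 2 counts therefore follow from how the area was drawn and are a description only. Outside it, 4 of 13 listed genes on chromosome 1 did (30.8%), beside 13.5% of 1747 protein-coding genes. On chromosome 18 outside it, 4 of 11 listed genes did (36.4%), beside 23.5% of 170. NRAS, a RAS oncogene, had its highest 1-Mb O/E with chromosome 18 at 12.6 (104 read pairs) and a coverage of 1.38 in HCC1954 against 1.03 to 1.07 in the others. NOTCH2, a receptor gene, had 15.99 (68 read pairs) and 0.983 against 0.888 to 0.898. CDH2, which codes for N-cadherin, had 26.6 (72 read pairs) with 72 to 73 Mb of chromosome 1, and a coverage of 0.625 inside the range of 0.482 to 0.634. SETBP1 had 11.7 (90 read pairs) and a coverage of 1.30 against 0.531 to 0.694, and its block was in A in HCC1954 (0.85) and in B in the other 4 maps (-1.08 to -0.81). SMAD2, a mediator of TGF-beta signals, had 9.96 (63 read pairs) and 0.931 against 0.563 to 0.824. In 200-kb blocks the highest O/E of these genes rested on 4 to 8 read pairs, too few to place a partner.

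SMAD4 (chr18:48554898-48611415), another TGF-beta mediator, spans the outer upper edge. Its highest 1-Mb O/E was 4.99 (23 read pairs) and its coverage 0.718 in HCC1954, inside the range of 0.591 to 0.815. DCC, the netrin receptor gene just beyond the edge, had 2.53 (8 read pairs) and a coverage of 0.412, below the 0.461 to 0.672 of the other maps, and TCF4, a transcription factor gene, had 0.533 against 0.587 to 0.908. These were 2 of the 11 listed genes of chromosome 18 outside the area (18.2%), beside 20.6% of its 170 protein-coding genes there that were below all other maps. CELF4, a gene of an RNA-binding protein, lay 94.2 kb below the inner upper edge. The nearest protein-coding gene above that edge was PIK3C3, a class III phosphoinositide kinase gene, 4295.2 kb away. TTC39C spanned the outer lower edge. Coverage was above all other maps for 4 of the 5 listed genes inside the area, for 257 of 280 protein-coding genes of its chromosome 1 part (91.8%) and for 80 of 93 of its chromosome 18 part (86.0%). Outside, the shares were 52.9% of 1747 on chromosome 1 and 11.2% of 170 on chromosome 18. Of the listed genes outside the area with enough usable bins, 9 of 13 on chromosome 1 and 2 of 11 on chromosome 18 were above all other maps, and PRDM16 was left out for too few usable bins.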

How the data were processed

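In situ Hi-C with MboI was made from 4 cell lines, per the labels. Per the study's methods, the authors mapped reads to hg19 (BWA-MEM), dropped PCR duplicates (Picard) and iteratively corrected each map of 40-kb bins; BWA and Picard are also named in the submitters' processing notes. The values as deposited by the authors are a signal, the corrected contact frequency of each bin pair. One factor per bin was fitted so that value times the 2 factors gave whole read pairs. Among bin pairs with low counts this held (within 0.02) for 100% in HCC1954, SNU-C1 and OE33 and 99.98% in SW480. Higher counts, such as the 73 read pairs at corner 1, were rounded to whole numbers without this check. Bins under 0.25 of the autosomal median coverage in any line were left out. SW480 replicates 1 and 2 hold 0.217% and 0.218% contacts between chromosomes and served for measurements within chromosomes; the SW480 map without a replicate number was not used. Blocks of 1 Mb needed 13 of 25 usable bins and blocks of 200 kb 3 of 5. Corners were sought within 400 kb of the strongest block. The eigenvector's input was capped at its 99.5th percentile. Genes came from GENCODE on GRCh37. At the leading 6 corners, the protein-coding gene holding the edge or the nearest on each side was named, with a list of 30 cancer genes. Members, lists and edges were chosen with earlier results of these data known. Scripts used Python 3.11.15, numpy 2.4.6, scipy 1.17.1 and numba 0.67.0. The block calls and the corner search were tried on simulated maps, and the remaining steps as run here were not. No p-value was computed, since HCC1954, SNU-C1 and OE33 had 1 map each.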

Additional observations from a re-analysis of the deposited data

How the results depend on the processing

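The 767 line-specific block pairs (4.96% of 15478) became 204 of 3888 (5.25%) with 2-Mb blocks, 443 with thresholds of 6 and 387 with an expected value from chromosomes 1 and 18 alone. The chromosome 1 edge of corner 1 moved to 95.32 Mb with 5 by 5 and with 15 by 15 bins. Edges of weaker corners moved as well, that of corner 4 on chromosome 1 from 95.48 to 95.8 Mb with 5 by 5 bins. The decay slope of corner 1 changed sign, from 0.20 to -1.16 over 200 kb to 5 Mb and to -1.10 from the 5 by 5 edges. That of corner 3 was -1.03 over 200 kb to 5 Mb, where the slope within the chromosomes was -1.26. Over 80 kb to 1 Mb the slopes of corners 1 and 3 were 1.18 and -0.01. All values from the 5 by 5 edges, the outer edges and the stretches were added after seeing the data. Coverage steps, as HCC1954 minus the median of the other maps on the log2 scale, were 0.15 at corner 1 on chromosome 1, 0.19 on chromosome 18, -0.34 at corner 3 on chromosome 1 and 0.03 on chromosome 18. With 480-kb windows they were 0.0026 at corner 1 on chromosome 1, and 0.0059 and -0.19 at corner 3 on chromosomes 1 and 18, where both changed sign. With 2-Mb windows they were 0.28, 0.41, -0.20 and 0.32 in the order first given. On chromosome 18 HCC1954 was then not above all other maps. Its own step was 0.26 at corner 1, where SNU-C1 had 0.29, and -0.49 at corner 3, inside the -0.85 to -0.11 of the others. From all read pairs in 3 lines, the step was 0.21 at corner 1 on chromosome 1 and 0.34 at corner 3 on chromosome 18. Without SW480 replicate 1 or replicate 2 the 4 steps ranged from 0.14 to 0.15, 0.19 to 0.20, -0.36 in both, and 0.0038 to 0.05. Contacts within a chromosome across the corners, in the same order, were 1.22, 0.973, 1.22 and 1.18 within 480 kb, 0.764, 0.860, 1.01 and 1.02 within 2 Mb, and 1.67, 1.12, 0.686 and 0.738 without iterative correction. From the 5 by 5 edges, chromosome 1 had steps of 0.21 at corner 1 and -0.31 at corner 3, with contacts across of 0.679 and 0.965, and the eigenvector of the 4 kept sides was 0.21, 0.70, -1.70 and -0.46. The eigenvector of the kept sides was 0.83, 0.89, -1.50 and -0.59 in 400-kb blocks, 1.05, 0.72, -1.17 and -0.80 over whole chromosomes, and 0.89, 1.21, -1.52 and -0.22 without iterative correction; none of these 4 changed sign under any of these settings. The cause of these moves was not tested. No paired analysis was possible because HCC1954, SNU-C1 and OE33 have 1 map each. Bins of 40 kb limit the placement of an edge, and counts under 10 read pairs per block limit the 200-kb values.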
